A study of Rattus norvegicus with 24 samples.

Results

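Stat3 and Hes1 were followed by their Ensembl identifiers, ENSRNOG00000019742 and ENSRNOG00000001720, and these 2 genes were both found among the 16478 genes of the deposited TPM table. The names were paired with the identifiers by the rule that chose the genes, since the table itself gives identifiers only, and that rule uses no measured value, although the genes were proposed with earlier results of these data known. The neurospheres (NSps), free-floating clusters of neural progenitor cells (NPCs), came from brains of E15 Sprague Dawley rat fetuses, and NSps of every group were grown in medium with EGF, FGF, heparin, N-2 and B-27. Control NSps (C) received neither compound, N was given 5 µM Noggin and A was given 200 µM ascorbic acid, while CGy, NGy and AGy were the same 3 conditions with 1 Gy of photon radiation on day 3 after seeding. Treatments were added before irradiation and again after it. The paper's results place the RNA extraction 7 days after irradiation, while its methods give a culture time of at most 7 days. Each group had 4 samples. The control MO2, which the authors removed as an outlier, was left out of the comparisons, so that C had 3 samples and 23 were used in all. The labels do not say whether the samples of a group were separate cultures or animals, and p-values therefore measure the spread between these samples, which may be technical.

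Stat3 is a transcription factor that is activated by phosphorylation when cytokines such as LIF or CNTF bind receptors that signal through Il6st and JAK kinases. In neural progenitors it drives astrocyte genes such as Gfap. Hes1 is a repressor of the basic helix-loop-helix class and a direct target of Notch signaling: the Notch intracellular domain with its DNA-binding partner RBPJ turns Hes1 on, and Hes1 in turn represses proneural genes and holds cells in the progenitor or glial state. Noggin binds and blocks bone morphogenetic proteins (BMPs), which act with Stat3 in astrocyte differentiation, and ascorbic acid is an antioxidant and an enzyme cofactor. RNA levels do not measure the phosphorylation of Stat3 or the amount of Hes1 protein.

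The Hes1 promoter is shown because it holds the short motifs through which Notch input and the repression of Hes1 by its own protein are known to act. The 250 bases before the annotated start (RefSeq, GRCr8, chr11:84213046-84213295, minus strand) read 5′ to 3′ as follows, with capitals for the RBPJ core TGGGAA and the N box CACNAG on either strand.
Hes1 promoter: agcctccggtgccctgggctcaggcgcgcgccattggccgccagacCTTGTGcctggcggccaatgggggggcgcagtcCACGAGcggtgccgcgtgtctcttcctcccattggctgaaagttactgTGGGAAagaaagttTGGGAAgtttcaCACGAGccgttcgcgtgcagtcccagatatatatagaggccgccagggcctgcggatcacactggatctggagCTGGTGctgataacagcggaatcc
The RBPJ core occurred 2 times, starting 123 and 109 bases before the start, and 2.71% of 33469 rat promoters of this length held at least as many matches on the 2 strands. The N box occurred 4 times, none overlapping an RBPJ core, and 0.197% of promoters held at least as many matches. The same window of Stat3 held neither motif. The STAT motif TTCNNNGAA, which reads the same on both strands, was found in 7.67% of promoters and in neither of these 2 windows. A match of letters is a description of the sequence and not of binding, which was not measured.

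The tables hold TPM without read counts, so the depth of each sample is unknown. The listed genes summed to between 615330 and 630861 TPM in most samples used, with 643344 to 655289 TPM in NGy, AGy and the CGy sample MO14B. MO2 stood apart for both genes: it had 68.0 TPM of Stat3, below all other samples, and 70.1 TPM of Hes1, above all samples but 1. The authors also deposited a batch-corrected table, in which doubled values gave the corrected TPM + 1. Means of log2(TPM + 1) by group were the same in the 2 tables, with differences of at most 4e-09, so the correction acted on the spread within groups alone. It removed 25.1% of the within-group sum of squares of Stat3 and 68.2% of that of Hes1. Tests on the corrected values do not account for this removal and are given second. The titles in the sample labels carry numbers other than the MO identifiers used here. In those titles, all A and AGy samples carry lower numbers than the N, NGy and CGy samples. What the title numbers record is not given, so ascorbic acid and this numbering cannot be told apart. Marker genes of cell types and the other genes of the JAK-STAT and Notch pathways were not analysed here by name, because the identifiers could not be paired with symbols.

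Stat3 was abundant and steady. Over the 23 samples it lay between 131 and 178 TPM with a median of 155 TPM, a 1.35-fold range, and its level exceeded that of 95.9% to 97.1% of the listed genes, depending on the sample. Its SD within groups was 0.08 on the log2(TPM + 1) scale, against a median of 0.18 over the 10134 genes whose highest group mean was 1 TPM or more, and 6.79% of these genes had a smaller one. The highest and the lowest group mean of Stat3 differed by 0.16 on the log2 scale, against a median of 0.42, and 4.76% of the genes had a smaller range. Both comparisons were with genes of any level from 1 TPM up, and not with genes as abundant as Stat3.

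By sample, Stat3 measured 155, 152 and 155 TPM in C (MO1, MO3 and MO4). In N (MO5 to MO8) it measured 161, 160, 149 and 153 TPM, and in A (MO9 to MO12) 172, 150, 175 and 178 TPM. These untreated and treated groups overlapped, with MO10 as the low sample of A. In CGy (MO13, MO14B, MO15 and MO16) Stat3 measured 162, 169, 157 and 160 TPM, all above the 3 C samples. In NGy (MO17 to MO20) it measured 145, 153, 152 and 153 TPM, all below the CGy samples. In AGy (MO21 to MO24) it measured 131, 167, 152 and 159 TPM, the widest spread of the 6 groups for this gene.

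**Figure D1:**
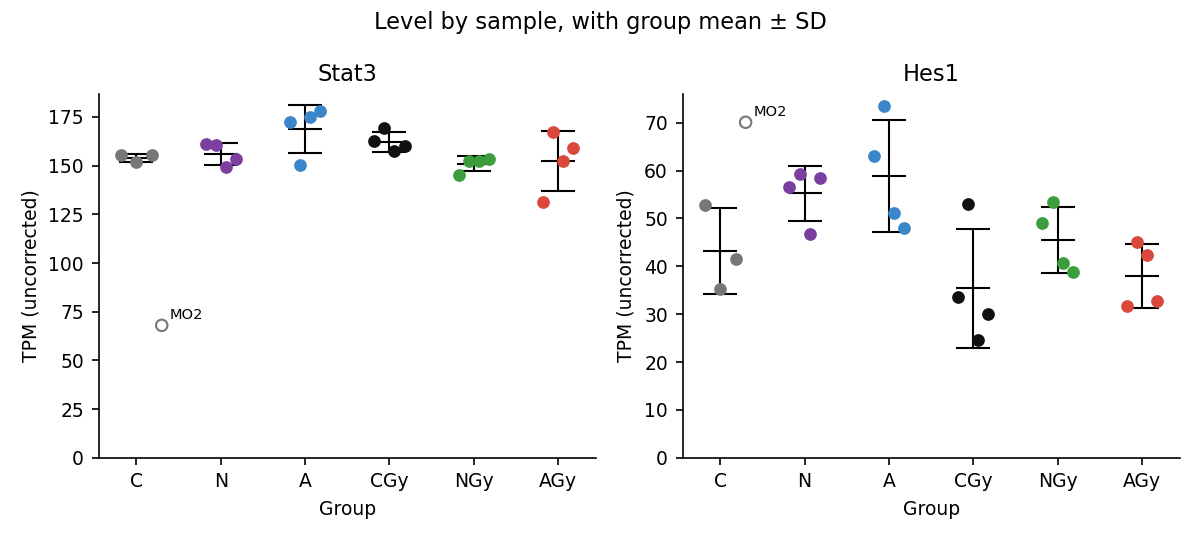
TPM of Stat3 (left) and Hes1 (right) in each sample by group, before batch correction; filled points are samples used, the open circle is the control MO2, and bars are the group mean ± SD (n = 3 in C, n = 4 in the others). Stat3 stayed between 131 and 178 TPM in all 23 samples used, while Hes1 reached from 24.7 to 73.6 TPM.

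Ordered by mean, Stat3 was highest in A (169 ± 12.5 TPM, SD, n = 4), followed by CGy (162 ± 5.05 TPM, SD, n = 4), N (156 ± 5.73 TPM, SD, n = 4), C (154 ± 2.08 TPM, SD, n = 3), AGy (153 ± 15.4 TPM, SD, n = 4) and NGy (151 ± 3.82 TPM, SD, n = 4). No pair among the 6 groups passed the test across all genes, with limma's adjusted p at 0.134 or more in each of the 15 pairs. The smallest was that of NGy against A, a log2 change of -0.16, where 14.7% of all genes were called, and AGy and NGy, the lowest neighbours, differed by 0.01 on the log2 scale where 8.96% were called. NGy against A did reach an adjusted p under 0.05 with 2 other scalings. It was 0.0370 (limma) with quantile normalization, at a log2 change of -0.22, where 1436 of 9905 genes were called. With all totals of listed TPM set equal it was 0.0401 (limma), at -0.24, where 1502 of 9902 were called. Both changes of Stat3 were under 1.5-fold, so it was not called. The order is one of means, quantile normalization exchanged CGy and N, and with MO2 kept C came last (133 TPM).

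For the effect of 1 Gy alone on Stat3, the CGy samples lay above the C samples without overlap, by a log2 change of 0.07 (95% CI -0.10 to 0.25, limma adjusted p = 0.616). An exact permutation test on the same values gave p = 0.0571 (two-sided, unadjusted, 35 splits, smallest possible 0.0286). The median log2 change of all genes in this comparison was 0.05. With quantile normalization the change of Stat3 was 0.01 (limma adjusted p = 0.937). With all totals of listed TPM set equal it was 0.05 (limma adjusted p = 0.717). Among all genes tested in CGy against C, 15% had groups that did not overlap and 0.0204% were called, where a call needs an adjusted p of at most 0.05 and a 1.5-fold change. After batch correction the 3 C samples spread to between 147 and 166 TPM and overlapped the CGy samples at 161 to 164 TPM, and 6.73% of genes were called.

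Stat3 in Noggin-treated NSps was lower after irradiation than in irradiated NSps without Noggin, with no overlap between NGy and CGy. The log2 change was -0.10 (95% CI -0.22 to 0.01, limma adjusted p = 0.343), and the exact permutation test gave p = 0.0286, the smallest it can give (two-sided, unadjusted, 70 splits, 1 of 14 such comparisons of the 2 genes). The groups did not overlap for 12.1% of all genes in this comparison before the correction, and 0.392% were called. After the correction the groups again did not overlap, with an adjusted p of 0.0876 (limma), while 25% of genes did not overlap and 1.42% were called.

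The other comparisons of Stat3 passed neither threshold and the groups overlapped. Ascorbic acid alone (A against C) gave a log2 change of 0.13 (95% CI -0.09 to 0.35), Noggin alone (N against C) 0.02 (95% CI -0.16 to 0.20), and ascorbic acid with irradiation (AGy against CGy) -0.09 (95% CI -0.29 to 0.11). Radiation in Noggin-treated NSps (NGy against N) gave -0.05 (95% CI -0.17 to 0.07) and in ascorbic-acid-treated NSps (AGy against A) -0.15 (95% CI -0.37 to 0.08). These intervals all exclude a 1.5-fold change in either direction, which is 0.585 on this scale. The comparisons with C were less certain with MO2 kept, where the log2 change of Stat3 was 0.42 in A against C (standard error 0.28), 0.31 in N against C (standard error 0.27) and 0.37 in CGy against C (standard error 0.27). MO21 carried much of the AGy values: without it AGy against CGy was -0.02 and AGy against A -0.08, and NGy against N was -0.03 without MO17. Other scalings made NGy against N larger. It was -0.14 with quantile normalization (limma adjusted p = 0.101) and -0.12 with equal totals (limma adjusted p = 0.184).

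Hes1 varied far more than Stat3. It lay between 24.7 and 73.6 TPM over the 23 samples with a median of 46.8 TPM, a 2.98-fold range, and was lower than Stat3 in every one of these samples. Its SD within groups was 0.29 on the log2(TPM + 1) scale, larger than in 76.3% of genes, and its highest and lowest group means differed by 0.76, a wider range than that of 80.0% of genes. Differences between groups held 55.1% of its sum of squares over the 23 samples, against a median of 46.6% for all genes, and 37.6% for Stat3.

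**Figure D2:**
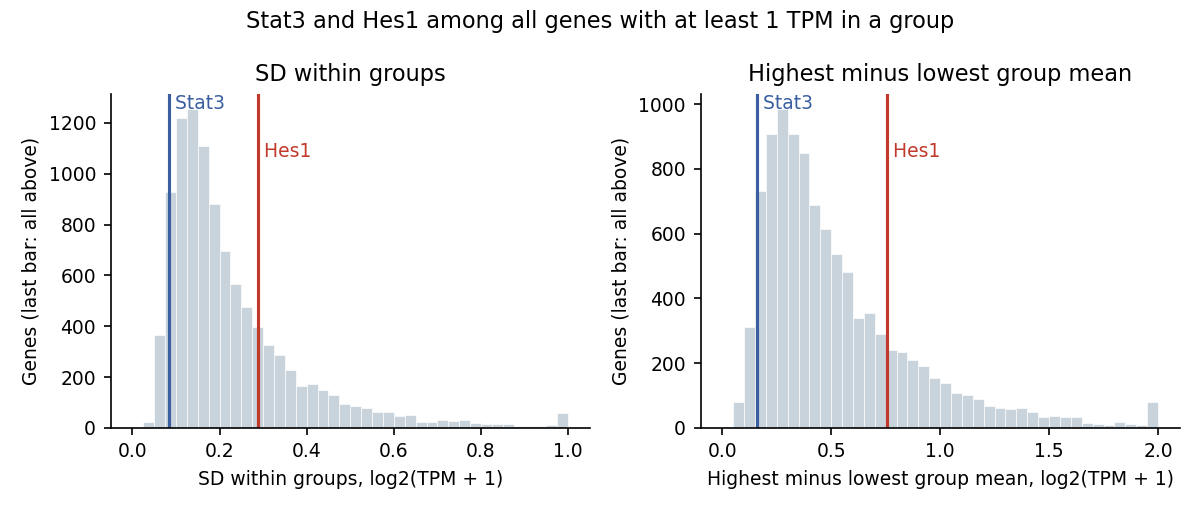
Number of genes by their SD within groups (left) and by the difference between their highest and lowest group mean (right), both on the log2(TPM + 1) scale, for the 10134 genes whose highest group mean was 1 TPM or more; vertical lines mark the 2 genes and the last bar holds all larger values. Stat3 lies near the low end of both distributions and Hes1 above the middle of both.

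Hes1 measured 52.9, 35.2 and 41.6 TPM in C (MO1, MO3 and MO4). In N (MO5 to MO8) it measured 56.5, 59.3, 46.8 and 58.4 TPM, and in A (MO9 to MO12) 63.0, 73.6, 51.1 and 48.0 TPM. All samples of N and A thus lay above MO3 and MO4 of group C, while MO1 lay inside the range of both. MO7 of N and MO11 and MO12 of A were below MO1. After irradiation Hes1 measured 33.6, 53.1, 24.7 and 30.1 TPM in CGy (MO13, MO14B, MO15 and MO16). In NGy (MO17 to MO20) it measured 49.1, 53.4, 40.6 and 38.7 TPM, and in AGy (MO21 to MO24) 31.7, 45.1, 42.3 and 32.8 TPM. MO14B was high for its group and above all 3 C samples, so that CGy and C overlapped. The other 3 CGy samples were below the C samples, with 33.6 and 35.2 TPM as the closest values.

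Mean Hes1 was lower after irradiation in each of the 3 treatments, and the decrease averaged over them passed at the adjusted p alone. This average was under 1.5-fold and would not be called by the rule used for pairs of groups. The 12 irradiated samples had 24.7 to 53.4 TPM with a median of 39.7 TPM, and the 11 samples without irradiation had 35.2 to 73.6 TPM with a median of 52.9 TPM. Of the irradiated samples 10 lay below the median of the others. Averaged over C, N and A, the log2 change was -0.41 (standard error 0.12, 95% CI -0.65 to -0.16, limma adjusted p = 0.0191 over all genes tested). An exact permutation test that exchanged samples only within a treatment gave p = 0.00445 (two-sided, 171500 splits). This average was tested after the data were seen, and 21.6% of 10134 genes passed the same test, or 42.9% on the batch-corrected values, where Hes1 passed as well (limma adjusted p = 7.26e-05). Hes1 also passed at the adjusted p alone when each sample was left out in turn, with adjusted p-values from 0.00345 to 0.0467 (limma). The same average for Stat3 was -0.04 (95% CI -0.13 to 0.04, limma adjusted p = 0.490), and the exact test gave p = 0.310. In RNA from whole NSps, fewer cells with Hes1 and less Hes1 RNA per cell cannot be told apart.

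Taken singly, the 3 radiation comparisons of Hes1 were not called before batch correction. The widest was in ascorbic-acid-treated NSps, from 58.9 ± 11.7 TPM in A (SD, n = 4) to 38.0 ± 6.73 TPM in AGy (SD, n = 4), with no overlap between the groups. The log2 change was -0.62 (95% CI -0.999 to -0.23, limma adjusted p = 0.235), and the exact permutation test gave p = 0.0286, the smallest it can give (two-sided, unadjusted). Among all genes 8.1% did not overlap in this comparison and 0% were called by limma, although 1256 of 9859 had an unadjusted p under 0.05. On the batch-corrected values Hes1 was called (limma adjusted p = 0.0445), as were 1.04% of genes. The listed genes summed to more TPM in AGy than in A, and with all totals set equal the log2 change of Hes1 was -0.68.

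In Noggin-treated NSps, Hes1 was 55.2 ± 5.74 TPM in N (SD, n = 4) and 45.5 ± 6.97 TPM in NGy (SD, n = 4), and the groups overlapped. The log2 change was -0.28 (95% CI -0.56 to 0.0002, limma adjusted p = 0.151), with 2.91% of genes called. After the correction the adjusted p was 0.0179 (limma), but the change stayed under 1.5-fold, and 4.72% of genes were called. Without treatment, Hes1 was 43.2 ± 8.95 TPM in C (SD, n = 3) and 35.4 ± 12.4 TPM in CGy (SD, n = 4), a log2 change of -0.32 (95% CI -0.93 to 0.29, limma adjusted p = 0.536). Single samples moved this estimate: without MO14B the log2 change was -0.53 (limma adjusted p = 0.410) and without MO1 -0.17 (limma adjusted p = 0.790).

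Neither treatment was shown to change the response of the genes to radiation. For Hes1, the radiation effect with Noggin less that without it was 0.04 on the log2 scale (95% CI -0.59 to 0.67, limma adjusted p = 0.955), and with ascorbic acid -0.30 (95% CI -0.99 to 0.39, limma adjusted p = 0.741). For Stat3 these differences were -0.12 (95% CI -0.28 to 0.04, limma adjusted p = 0.402) and -0.22 (95% CI -0.48 to 0.04, limma adjusted p = 0.632). Of all genes, 0.01% passed this test for Noggin and 0.00996% for ascorbic acid. On the batch-corrected values these shares were 24.1% and 11.2%, and neither gene passed. The intervals of Hes1 are wide enough to hold differences larger than the radiation effect itself.

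**Figure D3:**
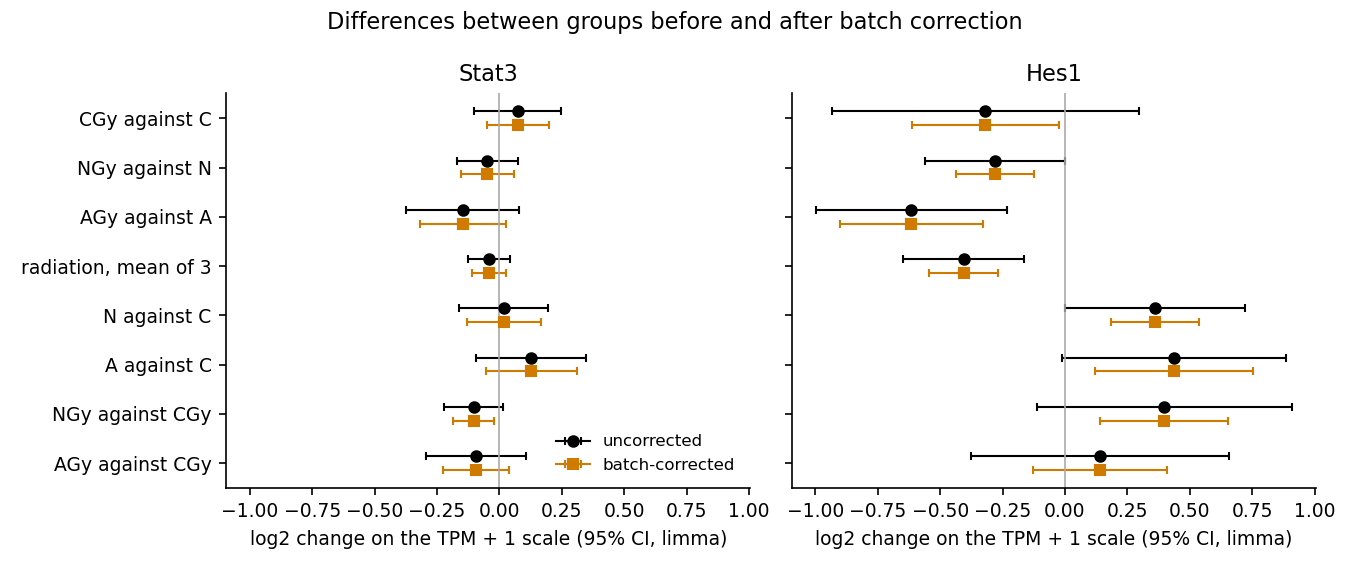
Log2 change on the TPM + 1 scale with its 95% confidence interval (limma) for Stat3 (left) and Hes1 (right), from the uncorrected table (black circles) and the batch-corrected table (orange squares); the line marked as the mean of 3 is the radiation effect averaged over C, N and A. The estimates are the same in both tables, intervals of Stat3 stay close to 0, and those of Hes1 narrow after the correction.

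Without irradiation, mean Hes1 was higher in both treated groups than in C. The log2 change was 0.36 in N against C (95% CI -5.1e-05 to 0.72, limma adjusted p = 0.413) and 0.44 in A against C (95% CI -0.01 to 0.89, limma adjusted p = 0.419). Since both use the same 3 C samples, they are not independent. Without MO3 the change in N against C was 0.22, and without MO1 it was 0.51. In A against C it was 0.30 and 0.59 without the same samples. With MO2 kept, the changes were 0.18 in N against C (limma adjusted p = 0.674) and 0.26 in A against C (limma adjusted p = 0.675). The exact permutation tests gave p = 0.0857 and p = 0.143 (two-sided, unadjusted), and 0.0102% and 0.0203% of genes were called. After batch correction N against C had an adjusted p of 0.0228 (limma) with a change under 1.5-fold, and A against C one of 0.0890 (limma), with 3.88% and 2.44% of genes called.

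Among irradiated NSps, Hes1 was higher on average with Noggin, by a log2 change of 0.40 in NGy against CGy (95% CI -0.11 to 0.91, limma adjusted p = 0.396), and 0.14 in AGy against CGy (95% CI -0.38 to 0.66, limma adjusted p = 0.705). The change in NGy against CGy was 0.25 without MO15 and 0.61 without MO14B (limma adjusted p = 0.0989), and that in AGy against CGy was -0.00856 and 0.35 without the same samples. Samples overlapped in both, and 13 of the 16 pairs of an NGy and a CGy sample had the higher value in NGy. Of all genes 0.392% were called in NGy against CGy and 6.42% in AGy against CGy. After the correction NGy against CGy reached an adjusted p of 0.0454 (limma) without a 1.5-fold change, with 1.42% of genes called, and in AGy against CGy it was 0.376 (limma) with 9.07% called.

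Ordered by mean, Hes1 was highest in A (58.9 TPM), followed by N (55.2 TPM), NGy (45.5 TPM), C (43.2 TPM), AGy (38.0 TPM) and CGy (35.4 TPM). Neighbours in this order did not differ beyond their spread, with limma's adjusted p between 0.151 and 0.799. Of all genes, 10.1% were called in N against A, 0.665% in NGy against C and 0% in AGy against C by limma, where 1304 of 9837 had an unadjusted p under 0.05. The ends of the order, A and CGy, differed by a log2 change of 0.76 (95% CI 0.22 to 1.29, limma adjusted p = 0.0513). Hes1 was not called there, and 11.5% of genes were. This pair was picked as the highest and lowest mean in these same data, and its interval and p-values do not allow for that choice. A and CGy also differ in both ascorbic acid and radiation. A against CGy, N against CGy and N against AGy were all outside the planned comparisons. On the batch-corrected values Hes1 was called in this pair (limma adjusted p = 0.0041), as were 13.4% of genes. On uncorrected values it was called with quantile normalization (limma adjusted p = 0.0465), equal totals (0.0392), a variance trend (0.0359) and all 6 groups in 1 fit (0.00811), and not with a pseudocount of 0.1 (0.0646) or without the filter on low values (0.127). Hes1 was called on the batch-corrected values as well in N against CGy, a log2 change of 0.68 (limma adjusted p = 0.126 before and 0.00478 after the correction), where the share of genes called went from 0.878% to 4.07%. N and AGy differed by 0.54 (95% CI 0.23 to 0.85, limma adjusted p = 0.0220), which is under 1.5-fold, and 10.1% of genes were called. With equal totals this pair was called, at a log2 change of 0.60 (limma adjusted p = 0.0156). The order was the same in the batch-corrected values, with equal totals and after quantile normalization, but with MO2 kept C (50.0 TPM) moved above NGy.

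The correction rearranged the Hes1 values within groups. In CGy, MO14B moved from 53.1 to 39.0 TPM and MO15 from 24.7 to 32.4 TPM. In NGy, the higher pair MO17 and MO18 moved from 49.1 and 53.4 to 40.8 and 43.8 TPM, and the lower pair MO19 and MO20 from 40.6 and 38.7 to 49.0 and 47.2 TPM, so that their order turned. On the log2 scale the within-group SD of Hes1 was 0.29 before and 0.16 after the correction, and that of Stat3 0.08 and 0.07. For Stat3 the SD within C rose, from 2.08 to 9.83 TPM. Of the 7 comparisons between groups shown above, Hes1 was without overlap in 1 before the correction and in 6 after it, all but AGy against CGy. Among all genes the share without overlap after the correction was 40.8% in CGy against C, 30.6% in N against C, 27.6% in A against C, 32.8% in NGy against N, 15% in AGy against A, 25% in NGy against CGy and 38.3% in AGy against CGy. Before it, the share was 15% in CGy against C, 8.1% in AGy against A and 12.1% in NGy against CGy. The share thus rose among all genes as well in these comparisons, and shares before the correction are not given for the others.

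**Figure D4:**
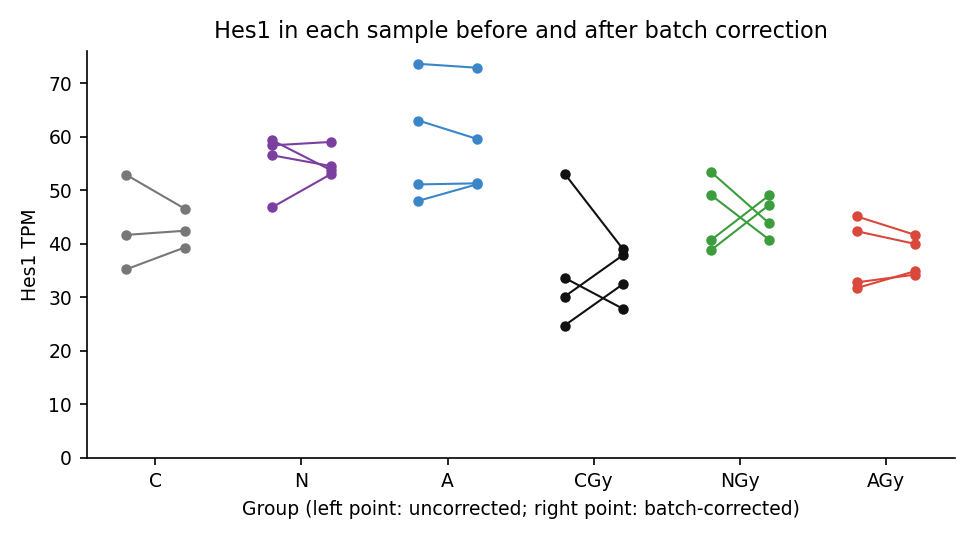
Hes1 TPM in each of the 23 samples used, by group, before (left point) and after (right point) the authors' batch correction; each line is a sample. The spread narrows in every group, from an SD of 12.4 to 5.16 TPM in CGy, while group means stay nearly in place. The order of the samples changes in N, CGy, NGy and AGy and stays in C and A.

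Stat3 and Hes1 did not follow each other closely: Pearson's r of log2(TPM + 1) was 0.24 over the 23 samples and 0.17 after the group means were taken out. These points share their libraries and groups, and the values are descriptions. The genes whose pattern was most like that of Stat3, of 10134, were ENSRNOG00000001436 (r = 0.84) and ENSRNOG00000001303 (r = 0.82). The first had its highest group mean in A, 81.9 TPM, and its lowest in NGy, 66.4 TPM, the same ends as Stat3. Those most like Hes1 were ENSRNOG00000018359 (r = 0.85), a gene of 1.60 to 2.74 TPM by group mean, and ENSRNOG00000008414 (r = 0.82). The latter was at 533, 616 and 597 TPM in C, N and A and at 472, 476 and 488 TPM in CGy, NGy and AGy. After group means were taken out, r stayed between 0.76 and 0.86 for these 4 genes. They were chosen for the largest r over the same samples, so high values within groups follow in part from that choice.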

How the data were processed

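Polyadenylated RNA of 24 NSp samples was sequenced by the authors, and TPM per gene were estimated with Kallisto and deposited. Per the labels, STAR 2.6.1 was also used. A further deposited score table, without MO2 and batch corrected by the authors with NOISeq, holds 0.5 times the corrected TPM + 1, and was doubled, with corrected TPM below 0 set to 0. Columns were assigned to groups by the identifiers the study gives and not to single labels. The uncorrected table was used first, since the correction acts within the labelled groups.

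Groups were compared on log2(TPM + 1) with limma 3.58.1 in R 4.3.3, in a fit of the samples compared (all 6 groups for the averaged radiation effect), for genes reaching a mean of 1 TPM in any compared group. This scale understates changes of genes with low TPM. P-values were Benjamini-Hochberg adjusted over all genes. A gene was called at an adjusted p of at most 0.05 and 1.5-fold for pairs, and at the adjusted p alone otherwise. Exact permutation tests were run over samples. The fits were tested on simulated data. The genes, lists and tests were chosen with earlier results of these data known. Genes named for their likeness were the 2 with the largest Pearson r to each gene. Figures were drawn with matplotlib 3.10.9.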

Additional observations from a re-analysis of the deposited data

Results flagged for a closer look

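Stat3 in MO17 of group NGy, at 145 TPM, lay below the other 3 samples of its group, which were between 152 and 153 TPM. This gap was large only against the narrow spread of those 3 samples, and MO21 of AGy was lower, at 131 TPM. Groups of 4 were examined for such gaps 10 times, and chance gives about 1 in 20. Hes1 in MO2, the control sample outside the comparisons, was 70.1 TPM, above the 3 control samples used (35.2 to 52.9 TPM). With MO2 kept, the log2 change of Hes1 was -0.50 in CGy against C and 0.18 in N against C.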

How the results depend on the processing

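No paired analysis was possible because the columns of the tables carry no replicate number shared between groups. The averaged decrease of Hes1 after irradiation kept its direction under all alternatives run (log2 change -0.46 to -0.41). It passed at the adjusted p alone in each (at most 0.0339, limma), with a change under 1.5-fold. It lay between -0.475 and -0.355 when each sample was left out. Stat3 averaged over treatments was 0.0563 with MO2 kept, a reversed direction, and -0.11 with quantile normalization. There it passed at the adjusted p alone (adjusted p = 0.0457, limma), as did 2255 of 10134 genes. Hes1 in AGy against A was called only in the batch-corrected table (log2 change -0.62). The Noggin interaction of Hes1 changed sign with equal totals (-0.0122) and lay between -0.11 and 0.25 when each sample was left out, and Hes1 in AGy against CGy between -0.00856 and 0.35. Among the pairs outside the planned comparisons, Stat3 with MO2 kept reversed in NGy against C (0.26) and AGy against C (0.27), as did Hes1 in NGy against C (-0.10), and quantile normalization reversed Stat3 in N against CGy (0.0308). None of these reversed pairs was called. MO2 moved the median log2 change of all genes in CGy against C from 0.05 to 0.21. The causes were not tested. Without read counts, the counting error of single values is unknown.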
